A study of Mus musculus with 37 samples.

Results

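The genes described here are 36 genes of the endoplasmic reticulum (ER) stress response and the secretory pathway, taken by name from the 53700 genes of each count table. They were listed for what their proteins do, with earlier results of these data known. By role they comprise 15 chaperones and folding enzymes, 4 stress sensors and transcription factors (Ern1, Eif2ak3, Atf6 and Xbp1), 4 genes of protein degradation, 7 genes of the translocon and signal peptidase, and 6 genes of the ATF4 branch.

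Bulk RNA-seq was made from natural killer (NK) cells of the pregnant mouse uterus at gestation day 9.5 to 10.5, in 37 libraries. Live CD45+ NKp46+ cells lacking CD3, CD4 and CD8, without those high for CD11b, were sorted by 2 receptors for self MHC class I, which educate NK cells. WT C57BL6 mice gave 9 libraries of uneducated cells (Ly49C/I- NKG2A-), 9 of NKG2A+ cells (Ly49C/I-) and 6 of Ly49C/I+ cells (NKG2A-). Mice labelled NKG2A KO gave 8 libraries of uneducated cells and 5 of Ly49C/I+ cells. Cells positive for both receptors were not collected, and how the KO allele was made was not stated in the labels. The labels do not say whether a library is 1 mouse or a pool, so the p-values below measure the spread between these libraries.

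The ER folds and modifies proteins that are bound for the cell surface, the granules or secretion. When unfolded proteins accumulate there, the sensors encoded by Ern1, Atf6 and Eif2ak3 start 3 signalling arms: Ern1 splices the Xbp1 mRNA, Atf6 is cut to a transcription factor, and Eif2ak3 slows translation while favouring Atf4. The Xbp1 and Atf6 arms are known to induce chaperones, translocon subunits and degradation genes, whereas Atf4 induces genes of amino acid supply such as Asns, and Ddit3. NK cells pass perforin, granzymes and cytokines through this pathway.

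The promoters of the chaperone genes are known for the ER stress response element, CCAAT followed by 9 bases and CCACG, so the copies found among these genes are shown. The RefSeq promoter table (GRCm38.p6, 250 bases before to 50 bases after each gene's start site) held 31 of the 36 genes and was searched on both strands. The element occurred in 8 of the 31 genes, which were 7 of the 13 chaperone genes with an entry and Syvn1, and in 39 of all 32851 promoters (0.119%). It occurred in 0 of 5 translocon genes and in 0 of 6 genes of the ATF4 branch. Each run below is read 5′ to 3′ on the strand of its gene, with the element in capitals, where CGTGG, 9 bases and ATTGG is the element on the opposite strand.
Hspa5, plus strand, chr2:34772020-34772048: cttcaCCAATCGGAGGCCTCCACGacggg
Hsp90b1, minus strand, chr10:86705528-86705661: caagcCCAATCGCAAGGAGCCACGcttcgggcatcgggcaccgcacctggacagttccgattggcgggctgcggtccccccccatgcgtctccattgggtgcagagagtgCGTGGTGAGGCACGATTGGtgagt
Calr, minus strand, chr8:84847070-84847098: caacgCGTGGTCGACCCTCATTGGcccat
Canx, minus strand, chr11:50325795-50325823: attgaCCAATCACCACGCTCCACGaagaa
Pdia6, plus strand, chr12:17266486-17266514: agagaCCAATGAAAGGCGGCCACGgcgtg
Dnajc3, plus strand, chr14:118937822-118937850: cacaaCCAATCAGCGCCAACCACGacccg
Creld2, plus strand, chr15:88819515-88819543: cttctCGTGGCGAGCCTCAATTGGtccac
Syvn1, plus strand, chr19:6046527-6046555: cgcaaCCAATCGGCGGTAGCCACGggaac

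Hsp90b1 carried 2 copies, at positions -212 to -194 and -107 to -89 from its start site. In Hspa5 the copy lay at -65 to -47 from the RefSeq start site, which is inside the first exon of the GENCODE M21 annotation. Hspa5 also held TGACGTG, the core of the element bound by XBP1, as the only 1 of the 31 genes, against 2.012% of all promoters. The core of the ATF4 and C/EBP element, TGATGNAA, was found in 4 of the 31 genes (Asns, Chac1, Trib3 and Herpud1) and in 3.969% of all promoters. The copy in Asns is shown because Asns had the largest fold change of the 34 genes tested in each comparison with uneducated cells below, with the core in capitals. It lies in the first exon of the GENCODE annotation.
Asns, minus strand, chr6:7693220-7693237: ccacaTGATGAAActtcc

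**Figure D1:**
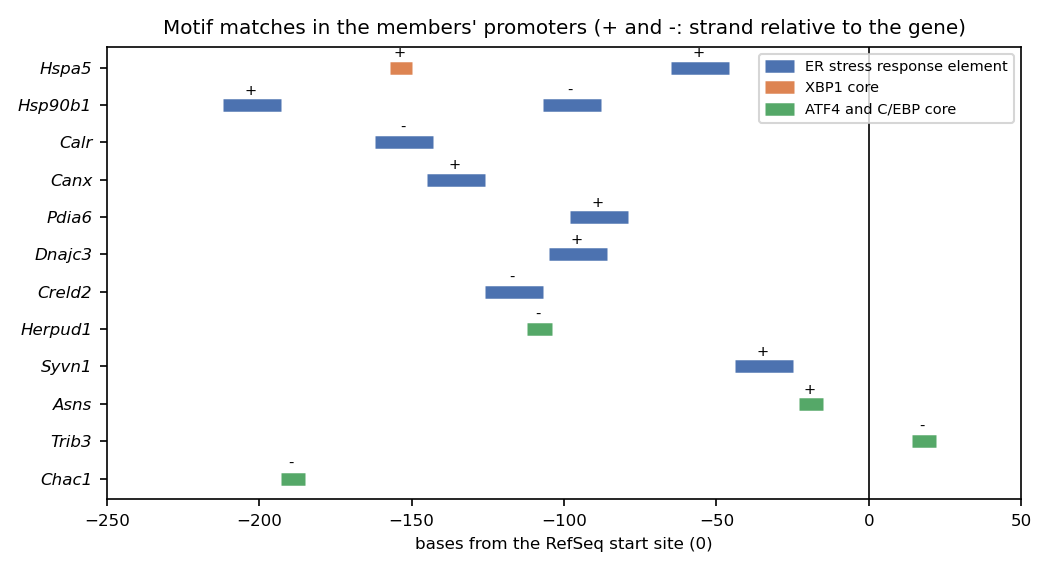
Position of the 3 motifs in the promoters of the 12 genes that hold one, in bases from the RefSeq start site (0), with the strand relative to the gene above each bar. All copies of the ER stress response element lie before the start site, and Hsp90b1 holds 2 of them.

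Total counts ran from 13287163 to 18875033 per library. The receptor genes followed the sort: Klrc1, which encodes NKG2A, had a median of 576 CPM (counts scaled to the library's total) in the NKG2A+ libraries and of 1.89 to 3.43 CPM in the other groups, and Klra9, a Ly49 gene, had 677 and 966 CPM in the Ly49C/I+ libraries of WT and KO mice against 64.6 to 102 CPM in the others. Since KO cells were collected only from NKG2A- gates, Klrc1 does not check the KO label. The NK gene Ncr1 had a median of 625 to 962 CPM in every group, but its level differed between groups. In WT mice it ran from 488 to 657 CPM in uneducated, 837 to 988 in NKG2A+ and 649 to 830 in Ly49C/I+ libraries. In KO mice it ran from 601 to 875 CPM in uneducated and 774 to 1022 in Ly49C/I+ libraries. The WT NKG2A+ and uneducated ranges did not overlap. In 4 libraries fewer genes had a count (13982 to 14197, against at least 14989 elsewhere): library 5 of the WT uneducated cells, library 9 of the NKG2A+ cells, and library 5 of the Ly49C/I+ cells of either genotype. WT uneducated library 5 also had 1.119% mitochondrial counts, against at most 0.542% in the rest.

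In uneducated WT cells the 7 highest of the 36 genes were all chaperones and folding enzymes. Per kilobase of exon, Hspa5, the Hsp70 chaperone of the ER, had the highest mean level (799 CPM per kb), followed by the disulfide isomerase Pdia3 (659) and the lectin chaperone Calr (493). P4hb (391), Hsp90b1 (388) and Sdf2l1 (382) had levels closer to each other than their spread between libraries. The translocon subunit Sec61b (218) and the transcription factor Atf4 (218) followed at ranks 8 and 9, while the chaperone genes Hyou1 (13.7) and Dnajb9 (12.6) stood at ranks 29 and 30. The sensors Atf6 (5.32) and Ern1 (3.95) and the ATF4 targets Trib3 (3.58) and Chac1 (3.15) were at its end.

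The uneducated libraries differed among themselves in the summed level of the 15 chaperone genes. In WT uneducated cells it ran from 10856 to 18366 CPM, and the 4 highest sums were those of libraries 1 to 4 (14149 CPM and above). In KO uneducated cells libraries 1 to 3 had 13702 to 16765 CPM and libraries 4 to 8 had 10362 to 11298 CPM. The educated groups lay lower and closer together, with 8445 to 11379 CPM in WT NKG2A+ cells, 8419 to 10427 CPM in WT Ly49C/I+ cells and 8010 to 8949 CPM in KO Ly49C/I+ cells. The labels give no batch, and the KO Ly49C/I+ libraries carry only the numbers 4 to 8, so the KO comparison was also run with the numbers that both groups hold.

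**Figure D2:**
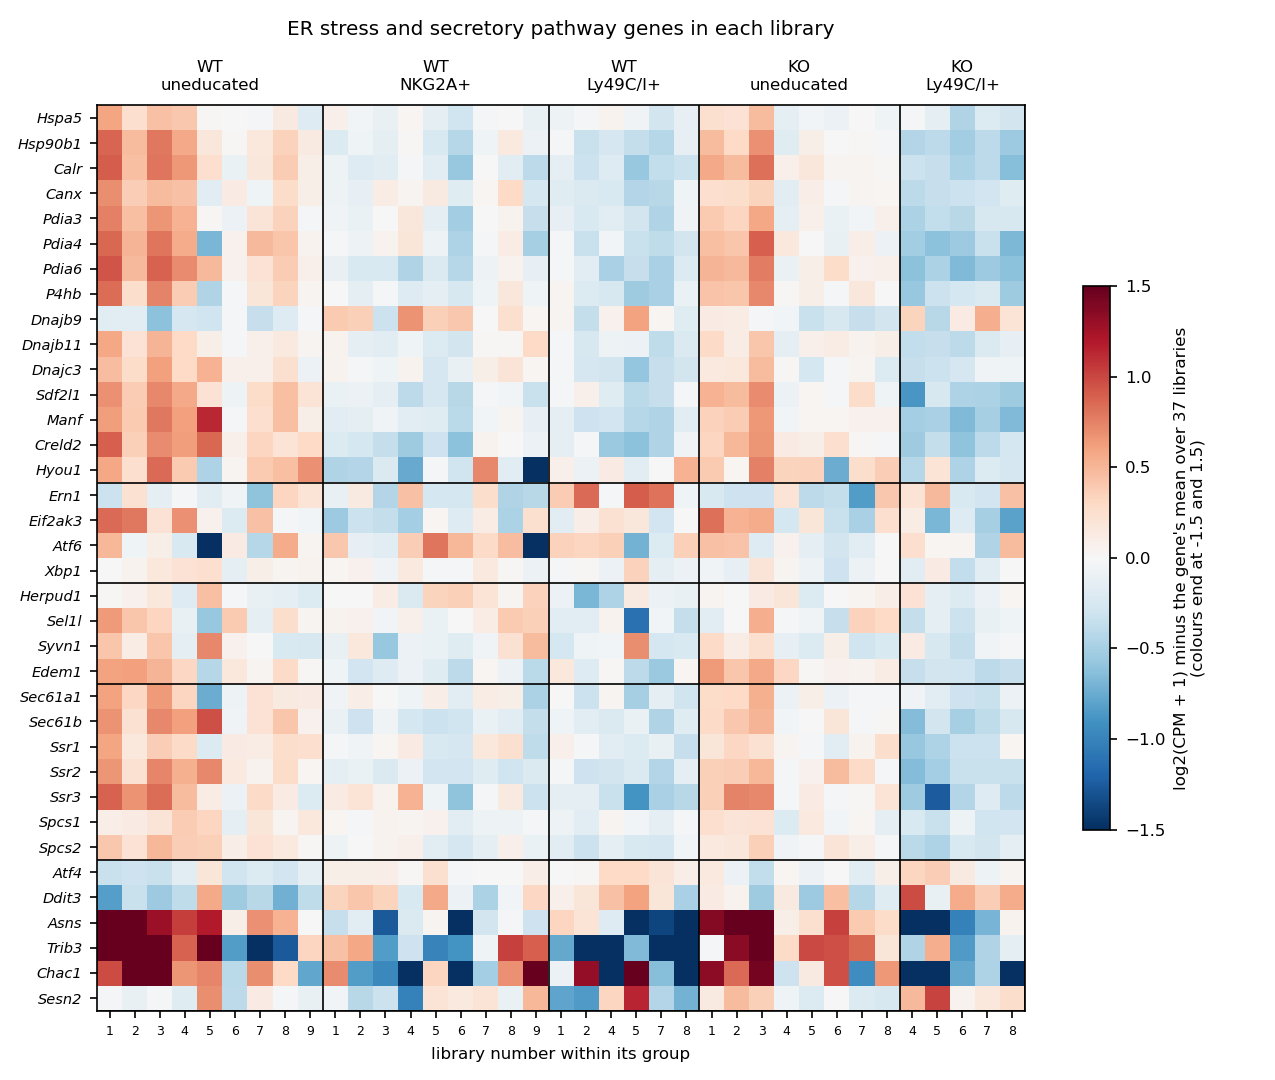
Each column is 1 of the 37 libraries and each row 1 of the 36 genes, coloured by log2(CPM + 1) minus the gene's mean over all libraries. Most chaperone and translocon rows are red in the uneducated groups, most so in libraries 1 to 4 of WT and 1 to 3 of KO mice, and blue in the Ly49C/I+ groups, while Atf4 and Ddit3 run the other way.

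The first comparison asked which of these genes differ between NKG2A+ educated and uneducated cells of WT mice. Most of the chaperones, the translocon subunits Sec61b and Ssr2 and the signal peptidase subunit Spcs2 were lower in NKG2A+ cells, by up to 1.68-fold, and Asns was 2.95-fold lower. Atf4, Ddit3 and the co-chaperone Dnajb9 were higher. Of the 34 genes that passed the filter on low counts, 16 were lower and 3 higher at an adjusted p under 0.05 (edgeR's quasi-likelihood test with Benjamini-Hochberg adjustment over all 9339 genes tested). Over all genes tested 15.0% were called, 7.56% lower and 7.47% higher. The median log2 fold change was -0.30 over the 34 genes and 0.01 over all genes.

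Among the chaperones 10 of 15 were lower and 1 was higher, with a median log2 fold change of -0.47. In 3 of the 34 genes, Pdia6, Creld2 and Ssr2, every NKG2A+ library lay below every uneducated library, which was so for 0.846% of all genes tested. Pdia6, a disulfide isomerase (ENSMUSG00000020571, plus strand of chromosome 12 from 17266545 to 17284770 in GRCm38), had 621 CPM at the lowest, 728 at the median and 878 at the highest NKG2A+ library, and 881, 1183 and 1630 CPM in uneducated libraries. The 2 groups did not overlap, although their nearest libraries were close to each other. Its log2 fold change was -0.69 ± 0.11 (SE, adjusted p = 0.000224 by edgeR).

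Creld2, an ER protein induced by unfolded proteins (chromosome 15, from 88819646 to 88826683), ran from 109 over a median of 138 to 174 CPM in NKG2A+ libraries and from 176 over 215 to 312 CPM in uneducated libraries. Its log2 fold change was -0.75 ± 0.12 (SE, adjusted p = 0.000178 by edgeR), the largest of the chaperones called. Sdf2l1, an ER protein that works with the co-chaperone Dnajb11, fell by 0.59 on the log2 scale, Manf, a secreted factor retained in the ER, by 0.65 and Calr by 0.61. Hsp90b1, the ER member of the Hsp90 family, fell by 0.53, with 15.67% of its exons overlapped by a gene on the opposite strand. Hspa5 itself had a mean of 2811 ± 216 CPM against 3379 ± 613 CPM (SD, n = 9 and 9) and a log2 fold change of -0.26 ± 0.09 (SE), which did not pass the test (adjusted p = 0.0533).

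Dnajb9, a co-chaperone of Hspa5 that is also an Xbp1 target, was the 1 chaperone gene that rose. It had 29.9, 48.6 and 60.8 CPM (lowest, median and highest library) in NKG2A+ cells and 24.2, 32.8 and 37.3 CPM in uneducated cells. The ranges overlapped, and the log2 fold change was 0.50 ± 0.13 (SE, adjusted p = 0.0113 by edgeR). Of its 50-base stretches 5.5% are shared with the gene Gm6568, so part of its counts could be split between both.

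In the translocon and signal peptidase group 3 of 7 genes were lower and 0 higher, and all 7 log2 fold changes were negative. Ssr2, a subunit of the translocon-associated protein complex (chromosome 3, from 88575876 to 88588419), had 189, 199 and 218 CPM in NKG2A+ libraries and 237, 281 and 384 CPM in uneducated libraries. No library of one group reached the other, and the log2 fold change was -0.60 ± 0.10 (SE, adjusted p = 0.000229). Sec61b, a subunit of the protein-conducting channel, fell by 0.67 and the signal peptidase subunit Spcs2 by 0.32 on the log2 scale. Of the 50-base stretches of Sec61b 17.43% are shared with Gm10320, and 12.82% of the Ssr2 exons are overlapped by Gm10704, so their counts carry that uncertainty.

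Among the sensors and Xbp1 1 of 4 genes was called. Eif2ak3 had a mean of 77.9 ± 16.4 CPM in NKG2A+ cells and 115 ± 32.1 CPM in uneducated cells (SD, n = 9 and 9), with overlapping ranges and a log2 fold change of -0.55 ± 0.15 (SE, adjusted p = 0.0181 by edgeR). The call was lost with a replicate block and without the filter on low counts, with an adjusted p of up to 0.0508. Xbp1 had 269 ± 15.6 and 280 ± 22.7 CPM (SD), and its log2 fold change of -0.05 ± 0.06 (SE) was within the spread between libraries. Its count does not separate the spliced from the unspliced mRNA. Of the degradation genes 1 of 4 was called: Edem1, which hands misfolded glycoproteins to degradation, fell by 0.44 on the log2 scale (adjusted p = 0.0106), from 332 ± 71.9 to 244 ± 25.3 CPM (SD).

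The ATF4 branch split. Atf4 ran from 585 over a median of 629 to 698 CPM in NKG2A+ libraries and from 468 over 483 to 669 CPM in uneducated libraries. The 669 CPM were those of uneducated library 5, and the other 8 uneducated libraries, at up to 531 CPM, lay below all NKG2A+ libraries. Its log2 fold change was 0.28 ± 0.07 (SE, adjusted p = 0.00818 by edgeR). Ddit3, a stress-induced transcription factor, rose by 0.52 on the same scale (adjusted p = 0.0471 by edgeR), a call that was lost without any 1 of 15 of the 18 libraries. Another annotated gene named Ddit3 overlaps 10.86% of its exons on the same strand and holds 3.27% of its 50-base stretches. Part of the Ddit3 counts could be split between both.

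Asns, the enzyme of asparagine synthesis (ENSMUSG00000029752, minus strand of chromosome 6 from 7675169 to 7693254), moved against them. It had 4.02, 20.7 and 26.0 CPM in NKG2A+ libraries and 24.9, 52.5 and 117 CPM in uneducated libraries. Only the lowest uneducated library fell within the NKG2A+ range. The log2 fold change was -1.56 ± 0.31 (SE, adjusted p = 0.00161 by edgeR). Trib3, an Atf4-induced pseudokinase, and Chac1, which degrades glutathione, stayed under the filter, with mean levels of 3.53 and 2.84 CPM in NKG2A+ cells and 7.61 and 5.15 CPM in uneducated cells. In a fit without the filter their adjusted p were 0.382 and 0.542.

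In bulk samples fewer cells of a type and less RNA per cell cannot be told apart. Of the marker lists, the 8 NK genes summed to 13338 to 17271 CPM in NKG2A+ and 11957 to 14654 CPM in uneducated libraries, with 5 higher and perforin (Prf1) lower. The 6 trophoblast and epithelium markers had a median sum of 35.6 CPM (19.7 to 81.5) in NKG2A+ and 73.8 CPM (46.5 to 206) in uneducated libraries. Most of it was Epcam, which was called lower (medians of 24.0 and 64.3 CPM). The medians of Krt8 (2.25 and 0.668 CPM) and Krt18 (3.39 and 1.73 CPM) were higher in NKG2A+ cells, and those of Krt19 were 1.00 and 1.03 CPM. Prl3b1 and Tpbpa were under 1 CPM in all libraries. The 4 endothelial markers summed to 122 to 201 and 219 to 343 CPM, nearly all of it Pecam1, which was lower, while Cdh5 and Emcn were under 1 CPM. The 6 B and plasma cell markers had median sums of 414 and 591 CPM, of which Ighm, also lower, made nearly all, with Jchain under 1 CPM. Cd3e and Cd3d were higher, as was the heat shock gene Dnajb1, by 0.47 on the log2 scale. The T cell sums were 72.2 to 183 CPM in NKG2A+ and 41.8 to 153 CPM in uneducated libraries. Cd3g, the T cell marker with the highest mean in both groups, had means of 74.3 and 81.6 CPM and was not called. The stromal sum had a median of 1.02 and 1.38 CPM, and the macrophage sum of 70.3 and 73.5 CPM. The part of these cells in the chaperone result was not tested. Leaving out the 4 libraries with the fewest genes, a choice made after seeing the data, raised the number of genes called from 19 to 25, and the calls of Pdia4 and P4hb were lost without 11 and 14 single libraries respectively.

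**Figure D3:**
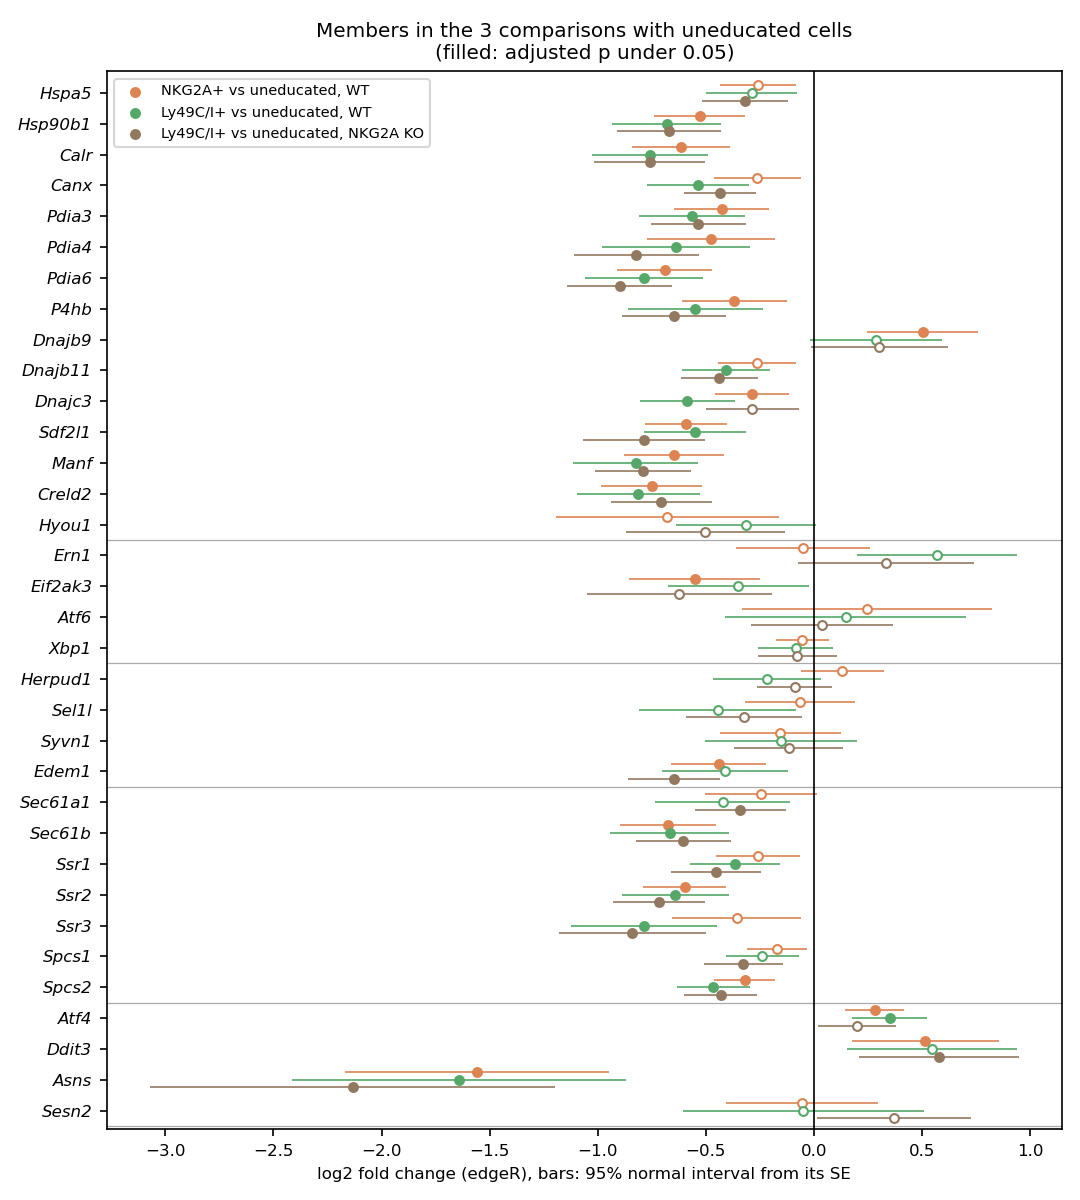
log2 fold change (edgeR) of the 34 genes tested, with bars of 1.96 SE either side, for the 3 comparisons with uneducated cells, and filled points for an adjusted p under 0.05. Pdia6, Creld2 and Ssr2 lie left of 0 in all 3, Asns farthest left, and Atf4 and Ddit3 right of 0.

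The second comparison set Ly49C/I+ educated against uneducated cells of WT mice. The uneducated libraries are those of the first comparison, so both share their errors. Chaperones and translocon subunits were lower by up to 1.77-fold, Asns was 3.12-fold lower, and Atf4 was the only gene called higher. Of 34 genes tested 18 were lower and 1 higher (edgeR's quasi-likelihood test with Benjamini-Hochberg adjustment over 9292 genes), while 9.30% of all genes were called, 5.05% lower and 4.25% higher. The median log2 fold change was -0.43 over the 34 genes and -0.00 over all genes. In 9 of the 34 genes every Ly49C/I+ library lay below every uneducated library, against 1.19% of all genes tested.

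Of the 15 chaperones 12 were lower and 0 higher, and 6 of them did not overlap between groups (Hsp90b1, Calr, Pdia6, Dnajb11, Manf and Creld2). Manf had 179, 199 and 222 CPM (lowest, median and highest library) in Ly49C/I+ cells and 240, 333 and 537 CPM in uneducated cells. The log2 fold change was -0.82 ± 0.15 (SE, adjusted p = 0.00302 by edgeR). Calr ran from 709 over 839 to 945 CPM in Ly49C/I+ libraries, all below the uneducated range of 980 to 1963 CPM, with a log2 fold change of -0.76 ± 0.14 (SE, adjusted p = 0.00317).

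Creld2 had 108, 137 and 164 CPM in Ly49C/I+ libraries, against a lowest uneducated library of 176 CPM, and fell by 0.81 on the log2 scale (adjusted p = 0.00297). Pdia6 had 604, 699 and 836 CPM, against 881 CPM in the lowest uneducated library, and fell by 0.79 (adjusted p = 0.00282). For Hsp90b1 the highest Ly49C/I+ library had 1142 CPM and the lowest uneducated library 1182 CPM, and the gene fell by 0.68 (adjusted p = 0.00433). The co-chaperone Dnajb11 fell by 0.41 (adjusted p = 0.0197), and this call was lost without Ly49C/I+ library 7. Hspa5 had a mean of 2787 ± 208 CPM (SD, n = 6) and a log2 fold change of -0.29 ± 0.11 (SE) that did not pass (adjusted p = 0.0993).

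All 7 translocon and signal peptidase genes had a negative log2 fold change, and 5 were called. Ssr2 had 171, 195 and 229 CPM in Ly49C/I+ libraries, below the lowest uneducated library at 237 CPM, with a log2 fold change of -0.64 ± 0.13 (SE, adjusted p = 0.00529 by edgeR). Spcs2 had 274, 299 and 333 CPM against 347, 399 and 485 CPM, also without overlap, and a log2 fold change of -0.46 ± 0.09 (SE, adjusted p = 0.00385). Sec61b fell by 0.67, Ssr3 by 0.79 and Ssr1 by 0.37 on the log2 scale. The call of Ssr1 was lost without any 1 of 11 of the 15 libraries, that of P4hb without 10 and that of Pdia4 without 8.

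Of the sensors and the degradation genes 0 of 4 and 0 of 4 were called. Ern1, the sensor that splices Xbp1, had 48.4 ± 14.4 CPM in Ly49C/I+ cells (SD, n = 6) and 32.3 ± 6.45 CPM in uneducated cells (SD, n = 9), with an adjusted p of 0.0641 (edgeR). In the ATF4 branch Atf4 had 592, 654 and 729 CPM against 468, 483 and 669 CPM. As with NKG2A+ cells, 8 of the 9 uneducated libraries lay below every educated library, and its log2 fold change was 0.35 ± 0.09 (SE, adjusted p = 0.0193). Ddit3 had 68.6 ± 16.6 CPM (SD) and a log2 fold change of 0.55 ± 0.20 (SE) with an adjusted p of 0.0932, and was called without uneducated library 5.

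Asns had 7.70, 15.5 and 31.6 CPM in Ly49C/I+ libraries, where the highest values overlapped the lowest of the uneducated libraries. Its log2 fold change was -1.64 ± 0.39 (SE, adjusted p = 0.0151 by edgeR). Trib3 had 0 counts in 3 of the 6 Ly49C/I+ libraries and in 1 of the 9 uneducated libraries, and its mean levels were 0.494 and 7.61 CPM. In the fit without the filter its adjusted p was 0.132, and that of Chac1 was 0.715.

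Epcam and Pecam1 were lower here too, by 1.11 and 0.69 on the log2 scale, with a trophoblast and epithelium sum of 26.6 to 44.1 CPM and an endothelial sum of 142 to 218 CPM in Ly49C/I+ libraries. Among the 8 NK genes Tbx21 was higher and Prf1 lower, and the sum of the 6 B and plasma cell markers had a median of 535 CPM. No-feature reads were at a median of 5.121% (4.162 to 6.825) in Ly49C/I+ and 3.323% (2.896 to 4.466) in uneducated libraries, and mitochondrial counts at 0.4465% and 0.339%. The part of these measures in the result was not tested. Without the libraries with the fewest genes 22 of the 34 genes were called.

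Of the 34 genes tested, 8 were called in none of the 3 comparisons with uneducated cells of their own genotype, the KO comparison described below included. They were the chaperone Hyou1, the sensors Ern1 and Atf6, Xbp1, the amino acid sensor Sesn2 and 3 degradation genes, Herpud1, Sel1l and the ubiquitin ligase gene Syvn1. Hyou1 had a mean of 61.8 CPM and a range from 11.4 to 124 CPM in NKG2A+ cells against a mean of 99.2 CPM in uneducated cells (adjusted p = 0.0866 by edgeR). Sel1l had mean levels of 104, 98.6 and 76.6 CPM in WT uneducated, NKG2A+ and Ly49C/I+ cells, with adjusted p of 0.792 and 0.140. The log2 fold changes of Herpud1 were 0.13 and -0.22 and those of Syvn1 -0.16 and -0.15 in NKG2A+ and Ly49C/I+ cells, and Sesn2 had -0.05 in both.

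The third comparison set NKG2A+ against Ly49C/I+ cells of WT mice. Of the 34 genes tested 0 were called by edgeR's quasi-likelihood test, while 2.73% of all genes were, and 7 of the 34 had an unadjusted p under 0.05. The edgeR likelihood ratio test called 2 of them, DESeq2 called 3, and a replicate block gave 2 calls (Dnajc3 and Ssr3). Dnajc3, a co-chaperone of Hspa5, had 298 ± 25.8 CPM in NKG2A+ and 245 ± 31.0 CPM in Ly49C/I+ cells (SD, n = 9 and 6), with an adjusted p of 0.0723. Ern1 had 31.1 ± 7.66 and 48.4 ± 14.4 CPM (SD), with an adjusted p of 0.0813. The median log2 difference over the 34 genes was 0.08, with a range from -0.64 to 0.41, and -0.00 over all genes.

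In NKG2A KO mice, Ly49C/I+ cells were compared with uneducated cells, from libraries that none of the WT comparisons used. Most chaperones, all 7 translocon and signal peptidase genes and Edem1 were lower in Ly49C/I+ cells, by up to 1.86-fold, and Asns was 4.39-fold lower. Of 34 genes tested 21 were lower and 1, Ddit3, was higher (edgeR's quasi-likelihood test with Benjamini-Hochberg adjustment over 9299 genes). Over all genes 16.3% were called, 8.99% lower and 7.34% higher. The median log2 fold change was -0.44 over the 34 genes and 0.02 over all genes. In 16 of the 34 genes every Ly49C/I+ library lay below every uneducated library, which was so for 3.67% of all genes tested.

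Among the chaperones 12 of 15 were lower and 0 higher, with a median log2 fold change of -0.65. Pdia6 had 551, 607, 535, 580 and 551 CPM in Ly49C/I+ libraries 4 to 8 and 789, 961 and 1439 CPM (lowest, median and highest) in the 8 uneducated libraries. The 5 values lay close together, and none reached the uneducated range. The log2 fold change was -0.90 ± 0.12 (SE, adjusted p = 0.000330 by edgeR), the largest of the chaperones.

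Manf had 171, 174, 154, 173 and 154 CPM in the 5 Ly49C/I+ libraries and 238, 255 and 383 CPM in uneducated libraries, with a log2 fold change of -0.79 ± 0.11 (SE, adjusted p = 0.000443). Hsp90b1 had 860, 891, 809, 890 and 799.6 CPM against 1029, 1207 and 1872 CPM, and a log2 fold change of -0.67 ± 0.12 (SE, adjusted p = 0.00208). Creld2 had 115, 130, 110, 127 and 139 CPM against 163, 190 and 264 CPM, and fell by 0.71 on the log2 scale (adjusted p = 0.00114). In these 3 genes the groups did not overlap, as in Calr, Canx, Pdia3, Pdia4, P4hb and Sdf2l1, whose log2 fold changes ran from -0.43 (Canx) to -0.82 (Pdia4).

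Hspa5 was called here, with 2906, 2657, 2145, 2552 and 2439 CPM in Ly49C/I+ libraries and 2670, 2895 and 4073 CPM in uneducated libraries. The ranges overlapped, and its log2 fold change of -0.32 ± 0.10 (SE, adjusted p = 0.0407) was among the smallest of the chaperones called. The call was lost without any 1 of 7 of the 13 libraries.

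Ssr2 had 147, 162, 183, 183 and 183 CPM in Ly49C/I+ libraries and 228, 290 and 326 CPM in uneducated libraries, without overlap, and a log2 fold change of -0.72 ± 0.11 (SE, adjusted p = 0.000612 by edgeR). Sec61b, Ssr3 and Spcs2 did not overlap either, and fell by 0.60, 0.84 and 0.43 on the log2 scale. The calls of Sec61a1 and Spcs1 were less stable. They were lost in 13 and 8 of 23 alternatives, of which 7 and 3 left out 1 library. Edem1 had 217, 227, 223, 210 and 216 CPM in Ly49C/I+ libraries against 278, 321 and 430 CPM. This was the narrowest spread of the degradation genes, below every uneducated library, with a log2 fold change of -0.65 ± 0.11 (SE, adjusted p = 0.00121).

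Asns had 2.59, 5.18, 12.0, 15.2 and 26.1 CPM in Ly49C/I+ libraries and 26.7, 42.8 and 101 CPM in uneducated libraries. The highest educated library lay just under the lowest uneducated one. The log2 fold change was -2.13 ± 0.48 (SE, adjusted p = 0.00672 by edgeR). Ddit3 had 118, 55, 87.4, 76.9 and 87.7 CPM against 40.2, 57.0 and 81.3 CPM, with a log2 fold change of 0.58 ± 0.19 (SE, adjusted p = 0.0446), a call lost without any 1 of 10 of the 13 libraries. The mean of Atf4 was 664 ± 87.4 CPM in the 5 Ly49C/I+ and 570 ± 61.3 CPM in the 8 uneducated libraries (SD), with an adjusted p of 0.145. Chac1 had a mean of 0.512 CPM against 4.49 CPM, and an adjusted p of 0.0880 without the filter.

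Restricted to the libraries numbered 4 to 8 in both groups, a choice made after seeing the data, 16 of the 34 genes were called, all of them lower, and 508 of all genes were called in place of 1519. Hspa5, Sec61a1, Spcs1, Ssr1, Ddit3 and Asns lost their call there, Asns with an adjusted p of 0.0724. With the replicate number as a block 19 of the 34 genes and 759 of all genes were called. The trophoblast and epithelium sum was 10.2 to 33.7 CPM in Ly49C/I+ and 35.1 to 73.2 CPM in uneducated libraries, with Epcam lower by 1.31 on the log2 scale. The heat shock gene Dnajb1 was higher by 0.68, with sums of the 6 dissociation genes of 1421 to 3316 and 829 to 2431 CPM, and 5 of 8 NK genes were higher and Prf1 lower. Mitochondrial counts had a median of 0.431% in Ly49C/I+ and 0.307% in uneducated libraries, and no-feature reads of 4.122% and 3.33%. The part of these measures in the result was not tested.

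**Figure D4:**
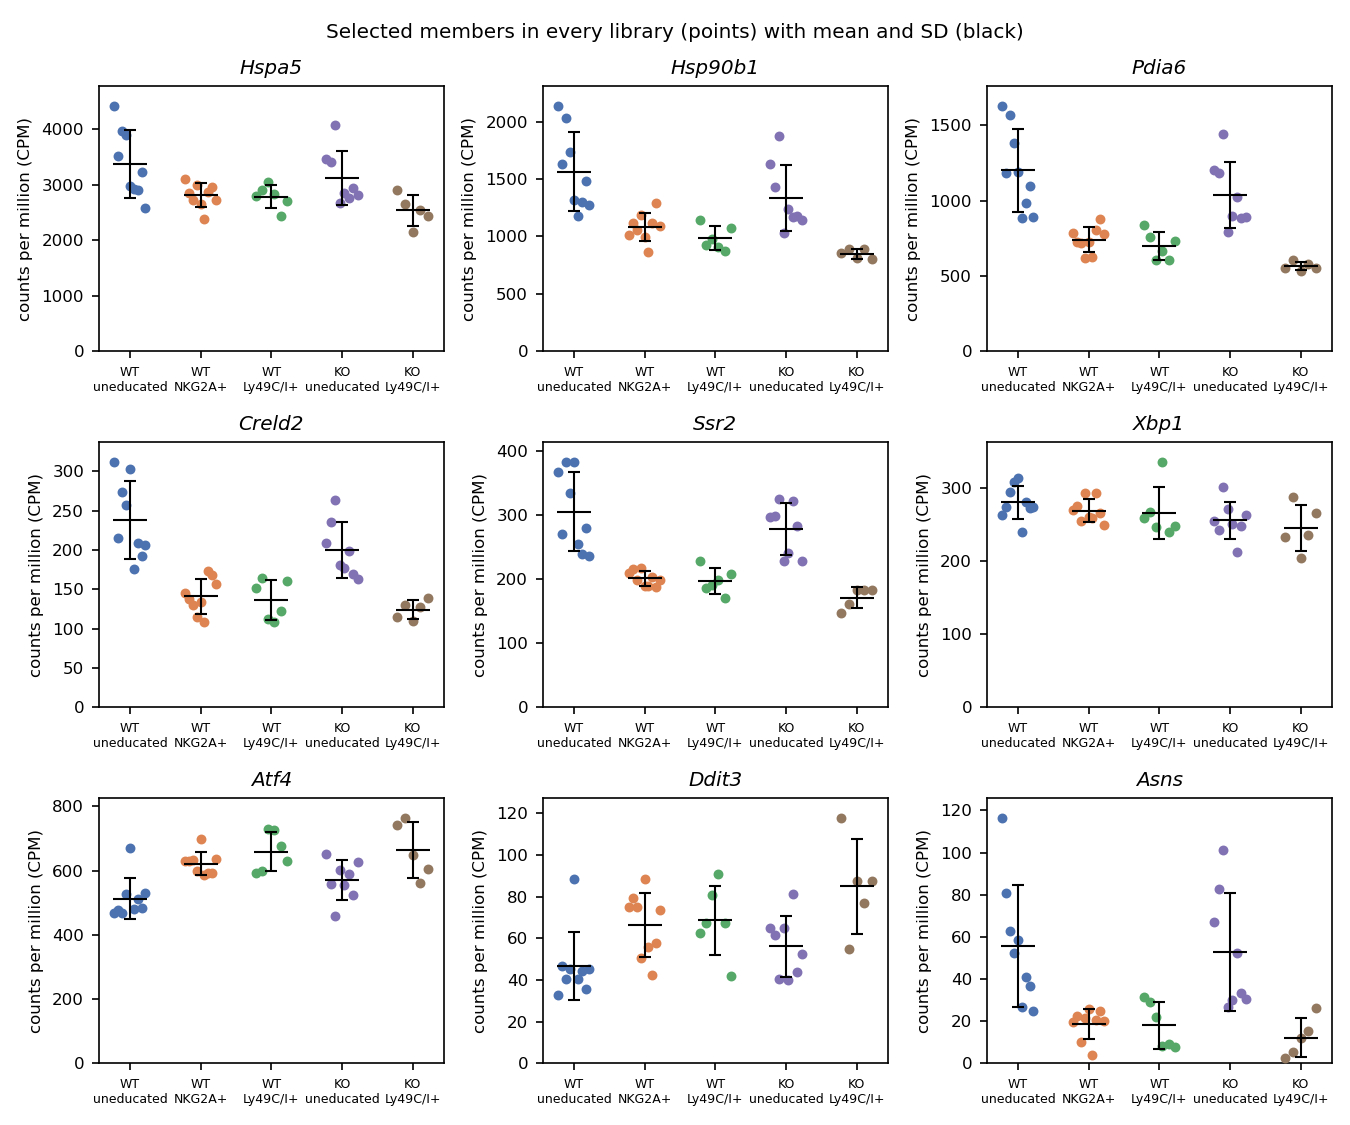
CPM of 9 genes in every library (points) with the mean and SD of each group (black), on axes that start at 0. Pdia6, Creld2 and Ssr2 show the educated groups below the uneducated ones of the same genotype, Xbp1 lies at a like level in all 5 groups (means of 245 to 280 CPM), and Asns is lower in the educated groups, and Atf4 is higher in those of WT mice, while in KO mice it did not pass the test.

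The KO comparison shares no library with the WT comparisons, so its calls can be set beside them. Of the 19 genes called in NKG2A+ cells of WT mice, 15 were called in the same direction in KO Ly49C/I+ cells, which is 78.9% of the former and 68.2% of the 22 called in the latter. Over all genes tested the same overlap was 639 genes, 45.5% of one list and 42.1% of the other. For Ly49C/I+ cells of WT and KO mice 17 genes were called in both in the same direction, 89.5% of the 19 and 77.3% of the 22, against 61.3% and 34.9% over all genes. The log2 fold changes of the 34 genes had the same sign in both genotypes in 33 cases for Ly49C/I+ cells, and for 73.4% of all genes.

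The effect of Ly49C/I+ sorting was tested for a difference between genotypes by an interaction term. Of 34 genes 0 were called and 0 had an unadjusted p under 0.05. The differences in log2 fold change (KO minus WT) ran from -0.50 for Asns to 0.41, with a median of -0.03. For Pdia6 the difference was -0.12 ± 0.19 and for Hsp90b1 -0.00 ± 0.18 (SE). Over all 9322 genes tested 0% were called by edgeR's quasi-likelihood test, 414 had an unadjusted p under 0.05, and DESeq2 called 1 gene and the likelihood ratio test 0.

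Between genotypes 0 of 35 genes differed in uneducated cells and 0 of 34 in Ly49C/I+ cells by edgeR's quasi-likelihood test, where 0% of all genes were called in uneducated cells and 0% in Ly49C/I+ cells. In uneducated cells 28 of the 35 log2 differences (KO minus WT) were negative, with a median of -0.12 and a range from -0.31 for Manf to 0.28, and 3 of the 35 had an unadjusted p under 0.05, as had 619 of all genes, of which DESeq2 and the likelihood ratio test each called 1. In Ly49C/I+ cells the median was -0.14, and 6 of 34 had an unadjusted p under 0.05 (Hsp90b1, Pdia4, Pdia6, Sdf2l1, Manf and Eif2ak3), as had 1001 of all genes. DESeq2 called 115 of all genes there, with Pdia6 as the 1 gene of the 34, and the likelihood ratio test called 62, with 0 of the 34. Pdia6 had 565 ± 28.6 CPM in KO (SD, n = 5) and 700.5 ± 92.2 CPM in WT cells (SD, n = 6), and an adjusted p of 0.256 by the quasi-likelihood test.

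The spread within a group was used to ask whether Hspa5 and other genes vary together. On log2(CPM + 1), Pearson's r with Hspa5 was taken for 12 other genes in each of 3 groups, and 14 of the 36 relations had an adjusted p under 0.05 by a two-sided exact permutation test. Of these 14, 4 came from WT uneducated and 8 from KO uneducated cells, where Hspa5 separates the libraries by number. In WT uneducated cells Hspa5 was at 3514 to 4426 CPM in libraries 1 to 4 and at 2575 to 3239 CPM in libraries 5 to 9, and Hsp90b1 at 1628 to 2139 and 1182 to 1484 CPM. In KO uneducated cells Hspa5 was at 3411 to 4073 CPM in libraries 1 to 3 and at 2670 to 2936 CPM in libraries 4 to 8. A difference between these sets can make such a relation, and each set is too small for an r of its own, so r is not given for the uneducated groups.

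In the 9 WT NKG2A+ libraries 2 relations passed, with p-values adjusted over all 36 relations. That adjustment leans on the small p-values of the uneducated groups. Adjusted over the 12 relations of the NKG2A+ group alone, neither of the 2 would pass. Calr had r = 0.83 (exact permutation p = 0.00694, adjusted p = 0.0203), and 0.56 without the 2 farthest libraries. Its rho of 0.75 did not pass (exact permutation p = 0.0255, adjusted p = 0.0765). Herpud1, a membrane protein of the degradation complex, had a negative r of -0.78 (exact permutation p = 0.0115, adjusted p = 0.0295), with rho = -0.88 (exact permutation p = 0.00308) and r = -0.82 without the 2 libraries. Without KO uneducated library 3 the number of relations passing in all 3 groups was 9, and without WT uneducated library 5 it was 19. Atf4 did not pass in any of the 3 groups, with adjusted p of 0.245 to 0.863.

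**Figure D5:**
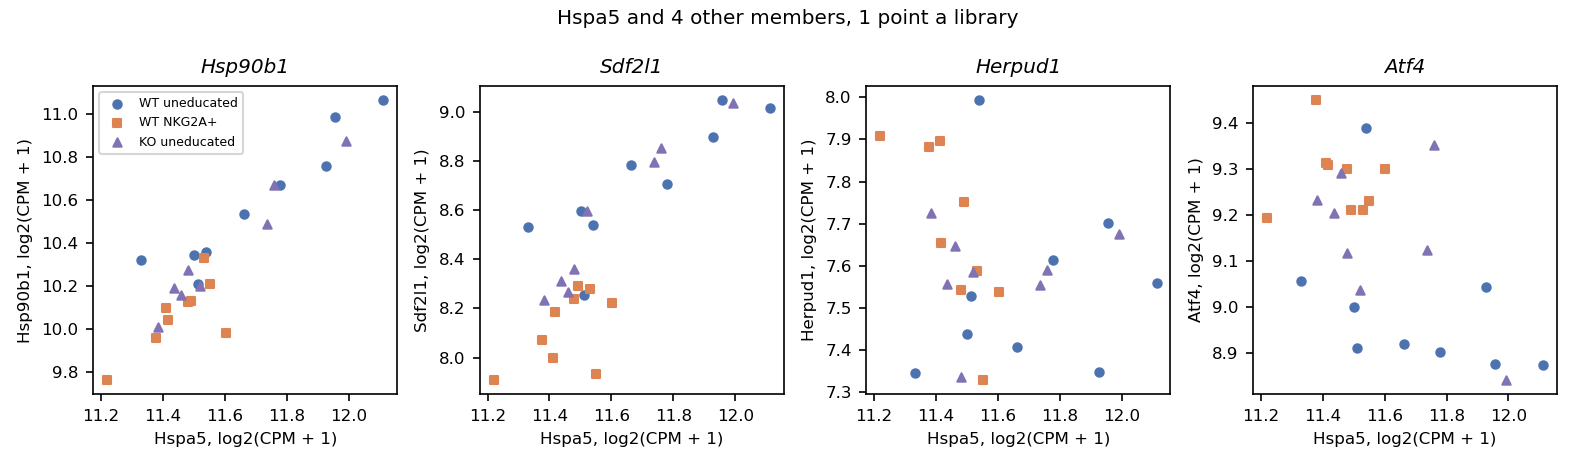
Levels of Hsp90b1, Sdf2l1, Herpud1 and Atf4 against Hspa5, both as log2(CPM + 1), with 1 point a library and a marker shape for each of 3 groups. In the uneducated groups libraries 1 to 4 (WT) and 1 to 3 (KO) lie to the right of the others on the Hspa5 axis. In the NKG2A+ libraries Herpud1 is lower where Hspa5 is higher (r = -0.78), a relation that passed only with p-values adjusted over all 3 groups.

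Other genes of the same pathways, in lists chosen with earlier results of these data known, were counted in the 3 comparisons with uneducated cells. Over all genes tested 7.56%, 5.05% and 8.99% were lower in NKG2A+ WT, Ly49C/I+ WT and Ly49C/I+ KO cells. Of 17 N-glycosylation genes, all of which passed the filter on low counts, 9, 8 and 8 were lower and 0 higher in the same order, and all 17 log2 fold changes were negative each time, with medians of -0.37, -0.55 and -0.45. Of the 24, 24 and 25 further folding and disulfide genes tested, 8 were lower in each and 0 higher. Of 29 ER to Golgi transport genes 6, 8 and 12 were lower, and 1 was higher in NKG2A+ cells. Of 19 translocation genes 4, 4 and 3 were lower. Of 21 degradation genes 2, 3 and 2 were lower, and 2 were higher in NKG2A+ cells, so that the share lower was near that of all genes in NKG2A+ and KO cells. Of the 32, 31 and 32 further ATF4 targets and regulators 8, 9 and 14 were lower and 4, 2 and 1 higher. Of 12 further sensors and transcription factors 1 was higher in NKG2A+ cells, 0 were called in WT and 1 was lower in KO Ly49C/I+ cells.

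In both WT comparisons the 2 largest called log2 fold changes among these lists were those of genes of disulfide formation. Pdia5, another disulfide isomerase, had 9.91 ± 7.71 CPM in NKG2A+, 9.60 ± 3.49 CPM in Ly49C/I+ and 32.0 ± 10.5 CPM in uneducated WT cells (SD). Its log2 fold changes were -1.68 (adjusted p = 0.00436 by edgeR) and -1.75 (adjusted p = 0.00107). Ero1l, the oxidase that recharges the disulfide isomerases, had 75.7 ± 19.4, 62.4 ± 13.7 and 169 ± 82.8 CPM (SD) and fell by 1.15 (adjusted p = 0.00185) and 1.44 (adjusted p = 0.00495). In NKG2A+ cells the channel gene Sec61a2 had a log2 fold change of -0.88 (adjusted p = 0.0125). Mthfd2, a mitochondrial folate enzyme and ATF4 target, had one of -1.06 in Ly49C/I+ cells (adjusted p = 0.00377).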

How the data were processed

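Total RNA of sorted cells (RNeasy Micro) was made into libraries with SMART-Seq v4 and Nextera XT. According to the submitters' processing notes reads were handled with FastQC 0.11.4, Trim Galore 0.5.0 and STAR 2.7.1 against GRCm38. The files deposited by the authors hold raw counts per Ensembl gene. Neither the counting program nor its use of strand was stated in the labels or methods, so counts of genes with a partner on the opposite strand (15.67% of the exons of Hsp90b1 and 16.3% of those of Spcs1) may hold its reads. The 5 summary lines of each table (no-feature reads were 2.691 to 6.825%) were left out. Symbols came from GENCODE M21 (52147 of 53700 genes).

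A gene entered a test where 0.5 or more of the libraries in it reached 5 CPM, and edgeR 4.0.16 was used (R 4.3.3; TMM, quasi-likelihood test, only the 2 groups compared). The authors also filtered at 5 CPM. Benjamini-Hochberg adjustment ran over all genes tested, with a threshold of 0.05. CPM used TMM-scaled library sizes. The SE of a log2 fold change is its size divided by the root of the F statistic. The steps were tested on simulated data. The members and lists were chosen with earlier results of these data known. All 36 genes are named. Full statistics were meant for genes called whose groups did not overlap or, failing that, with the smallest adjusted p of their role, and some of these are given by fold change or adjusted p alone. Of the wider lists the 3 genes with the largest called log2 fold change in each WT comparison were named. Values of other genes were chosen for print after they were seen. 1 gene of the wider lists was not analysed here, and 1 marker is not reported here.

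Alternatives were DESeq2 1.42.0, the edgeR likelihood ratio test, other filters, RLE factors, offsets for GC content and length, all 5 groups in 1 fit, a replicate block, and leaving out libraries. The authors used edgeR 3.26.5 with CQN. The labels do not say whether same-numbered libraries belong together, so the numbers were not taken as pairs. The correlation of their deviations was over 0.1 in 2 of 9 (NKG2A+ WT), 4 of 6 (Ly49C/I+ WT), 2 of 6 (NKG2A+ against Ly49C/I+) and 1 of 5 (Ly49C/I+ KO) pairs. Its medians were 0.0938, 0.108, 0.0744 and 0.0476 in that order. For other numbers they were -0.00372, -0.0211, -3.81e-05 and -0.00454. The main p-values ignore any such pairing, and counts with a replicate block are given below.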

Additional observations from a re-analysis of the deposited data

Results flagged for a closer look

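In groups of 5 to 9 libraries 12 of 180 tests of a gene's highest or lowest library passed Dixon's criterion, of which chance flags about 1 in 20 groups. WT uneducated library 5, which has few detected genes, was the highest of its group for Atf4 (669 CPM, next 531), Ddit3 (88.4 CPM, next 47.0), Herpud1 (254 CPM, next 207) and Sesn2 (53.9 CPM, next 35.8). WT Ly49C/I+ library 5 was the highest for Xbp1 (336 CPM, next 267), Syvn1 (115 CPM, next 68.5) and Dnajb9 (57.8 CPM, next 39.5). Single results were Pdia4 in KO uneducated library 3 (682 CPM, next 501), Hyou1 in WT Ly49C/I+ library 8 (108 CPM, next 81.9), Atf4 in WT NKG2A+ library 5 (698 CPM, next 635), Chac1 in WT NKG2A+ library 9 (10.4 CPM, next 4.53) and the lowest Herpud1 in KO uneducated library 5 (161 CPM, next 187). The cause was not tested.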

How the results depend on the processing

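No log2 fold change of a called gene turned its sign. Of the genes called, 14 of 19 (NKG2A+ WT), 15 of 19 (Ly49C/I+ WT) and 16 of 22 (Ly49C/I+ KO) kept their call under every alternative. The number called ran from 14 (no filter) to 25, 15 to 26 (all groups in 1 fit) and 16 to 24. Leaving out 1 library gave 15 to 25, 15 to 22 and 18 to 24. For NKG2A+ against Ly49C/I+ cells, with 0 called, the likelihood ratio test gave 2 (Dnajc3, Ern1), DESeq2 3 (also Canx), the numbers that both groups hold 1 (Ssr3), and leaving out 1 library 0 to 1 (Dnajc3 without Ly49C/I+ library 1). For KO against WT Ly49C/I+ cells DESeq2 gave 1. The relations with Hspa5 numbered 9 to 19 without 1 library.

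With the replicate block 19 (NKG2A+ WT), 20 (Ly49C/I+ WT), 2 (Dnajc3 and Ssr3, NKG2A+ against Ly49C/I+), 19 (Ly49C/I+ KO) and 0 (interaction) genes were called. Each library correlated best with its own number in 6 of 9, 6 of 6, 5 of 6 and 2 of 5 cases, a hint from the data and not the design.

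Over all genes the Ly49C/I+ WT count of 864 was 451 without the filter, 1528 with all groups, and 461 to 1234 without 1 library (Ly49C/I+ library 7, uneducated library 5). The NKG2A+ against Ly49C/I+ count of 254 was 442 by the likelihood ratio test, 558 by DESeq2, 104 without the filter, 115 with offsets, 124 without libraries 5, and 147 to 306 without 1 library. The KO count of 1519 was 889 without the filter and 967 without Ly49C/I+ library 4. For KO against WT Ly49C/I+ cells all groups in 1 fit gave 18 genes and leaving out 1 library up to 15. The cause was not tested. Genes under 5 CPM (Trib3, Chac1) are limited by depth.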
